A study of Mus musculus with 28 samples.

Results

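The mRNAs of 7 antioxidant enzyme genes, Cat, Sod1, Sod2, Sod3, Gpx1, Gpx3 and Gpx4, were followed in mouse bone marrow-derived macrophages (BMDM). All probe sets that the platform annotation assigns to 1 of these symbols and to no other gene were taken: 17 of the 45037 probe sets tested, for 7 of the 18193 genes named. Sod1 had 5 probe sets, Sod2 had 4, Cat, Sod3 and Gpx4 had 2 each, and Gpx1 and Gpx3 had 1 each.

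The macrophages were grown from total marrow of 12-week-old C57BL/6 J mice. In the compound experiment, wild-type (WT, Nrf2+/+) and knockout (KO, Nrf2-/-) cells received RA839, a non-covalent small molecule that binds Keap1, or the solvent DMSO at 0.2% in every dish, and RNA was taken after 4 h. The 4 groups are called WT_DMSO, WT_RA839, KO_DMSO and KO_RA839. In the siRNA experiment, Nrf2+/+ cells received a control siRNA (siControl) or 1 of 2 siRNAs against Keap1 (siKeap1-1 and siKeap1-2). The design text of the series writes RA838 where its title and the sample labels write RA839, the name used here. The concentration of RA839 and the timing of the siRNA treatment are not stated in the labels. Each of the 7 groups had 4 arrays, 28 in all, which the design text calls biological replicates. The labels do not say whether they came from separate mice, so the p-values measure the spread between these arrays. The labels name no Cre or tissue restriction for the knockout.

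Superoxide dismutases turn superoxide into hydrogen peroxide: Sod1 is the copper and zinc enzyme of the cytosol, Sod2 the manganese enzyme of mitochondria and Sod3 the secreted form. Catalase, which sits mainly in peroxisomes, splits hydrogen peroxide into water and oxygen, and glutathione peroxidases reduce peroxides with glutathione as the electron donor. Gpx1 is the abundant cytosolic form, Gpx3 a secreted form and Gpx4 the form that reduces lipid peroxides in membranes, and all of them are selenoproteins in the mouse. Nrf2 (gene Nfe2l2) is a transcription factor that binds antioxidant response elements, and Keap1 marks it for degradation, so agents that block Keap1 raise Nrf2 activity.

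The upstream sequences of Cat and Sod1 are shown because Cat is the member that moved most in the Nrf2 comparisons below, while Sod1 alone, of the 6 members with a RefSeq promoter window, held in it the core of an antioxidant response element. RefSeq windows of assembly GRCm38.p6, running from 250 bases before to 50 bases after a transcript start, were held for 6 of the 7 genes in 9 windows, Gpx4 having several starts. They were searched on both strands for the antioxidant response element core TGACNNNGC, for the AP-1 motif TGANTCA and for the NF-kB consensus. The 250 bases before the start are printed 5′ to 3′ on the gene's strand, with matches in capitals, for Cat at chr2:103485154-103485403 (minus strand) and for Sod1 at chr16:90220512-90220761 (plus strand).
Cat: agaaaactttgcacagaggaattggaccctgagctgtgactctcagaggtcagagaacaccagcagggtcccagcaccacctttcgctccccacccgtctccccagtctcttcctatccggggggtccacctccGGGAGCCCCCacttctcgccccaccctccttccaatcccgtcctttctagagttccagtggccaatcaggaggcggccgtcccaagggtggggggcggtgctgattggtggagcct
Sod1: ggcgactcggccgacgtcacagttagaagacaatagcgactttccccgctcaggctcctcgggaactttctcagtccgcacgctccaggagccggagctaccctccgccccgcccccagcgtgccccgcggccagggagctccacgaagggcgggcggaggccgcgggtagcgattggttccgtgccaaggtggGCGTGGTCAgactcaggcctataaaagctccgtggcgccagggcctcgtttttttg
The capitals in the Cat sequence are an NF-kB match, read on both strands, whose first base lies at -116 relative to the start. The capitals in the Sod1 sequence are an antioxidant response element core on the opposite strand, with its first base at -56. No Cat, Sod2, Gpx1, Gpx3 or Gpx4 window held the element core or the AP-1 motif, which says only that these letters are not in these windows. NF-kB matches also stood in the windows of Sod2 (-83), Gpx1 (-55) and Gpx3 (1), and no match of any of the 3 motifs in those of Gpx4. The motifs do not overlap each other in the sequences shown. Among all 32817 windows of this length, 12.4% held the element core, 7.81% the AP-1 motif and 8.46% the NF-kB consensus.

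The deposited values are log2 RMA values, 1 per probe set and array. A probe set is a group of short probes for 1 transcript region, and its level can be compared between arrays but not with another probe set's level. Array medians lay between 5.61 and 5.71 in the compound experiment and between 5.91 and 5.96 in the siRNA experiment, so no test crossed the experiments. The labels were borne out by Nfe2l2 (1416543_at), at 12.72 ± 0.20 in WT_DMSO against 3.40 ± 0.11 in KO_DMSO (SD, n = 4), although a second probe set of this gene (1457117_at) read 8.90 ± 0.22 and 8.08 ± 0.17, and by Keap1 (1450746_at), at 11.09 ± 0.10 in siControl against 9.06 ± 0.09 with siKeap1-1 and 9.26 ± 0.15 with siKeap1-2 (SD, n = 4). The macrophage genes Csf1r, Lyz2 and Cd68 were at or above 13.73 on all 16 arrays of the compound experiment. They are the brightest of 8 macrophage genes listed, of which Fcgr1 read lowest, from 8.84 to 12.42. Itgax, listed as a dendritic cell marker, read 13.17 to 13.72, so these levels alone do not name the cell type. Array 2 of WT_RA839 stood apart in RNA quality: its 3′ minus 5′ log2 difference for the control transcript Gapdh was 3.74, against 0.77 to 1.00 on the other 15 arrays of that experiment, and 3.10 against 1.28 to 2.04 for Actb. Called results that use this array, and several others, are therefore also given without it. The Actb difference also split by genotype: it was 1.68 to 1.98 in WT_DMSO, 1.70 to 3.10 in WT_RA839, 1.28 to 1.43 in KO_DMSO and 1.32 to 1.45 in KO_RA839, with no overlap between WT and KO arrays.

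Catalase mRNA was called higher with RA839 in WT macrophages and with both Keap1 siRNAs at 1 of its 2 probe sets, 1416430_at. These calls are from the main fit, which does not pair arrays by replicate number. Catalase mRNA was lower in KO than in WT macrophages at both probe sets. In WT_DMSO the probe set 1416430_at read 11.56, 11.70, 11.54 and 11.64 on arrays 1 to 4, and in WT_RA839 it read 12.20, 12.59, 12.21 and 12.31. All 4 treated arrays lay above all 4 controls, and array 2, the one with the large Gapdh difference, was the highest. The log2 difference was 0.72 ± 0.10 (SE), a 1.65-fold rise, with an adjusted p of 0.00221 by limma with Benjamini-Hochberg adjustment over all 45037 probe sets, the test used throughout. Without array 2 of WT_RA839 the difference was 0.63 ± 0.08, adjusted p = 0.00164. The call was lost when only the WT arrays were fitted (adjusted p = 0.0599), with the same difference of 0.72 and an SE of 0.12.

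The other Cat probe set, 1416429_a_at, read 13.37, 13.51, 13.32 and 13.27 in WT_DMSO and 13.66, 14.11, 13.63 and 13.76 in WT_RA839. These groups did not overlap either. Its difference of 0.42 ± 0.10 missed the threshold (adjusted p = 0.113), but passed it with the replicate number as a block (adjusted p = 0.0426). Without array 2 of WT_RA839 it was 0.32 ± 0.08, adjusted p = 0.13.

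In KO macrophages, 1416430_at read 9.46, 9.53, 9.51 and 9.63 with DMSO and 9.45, 9.69, 9.51 and 9.66 with RA839. The groups overlapped, and the difference was 0.05 ± 0.10 (adjusted p = 1). For 1416429_a_at it was 0.02 ± 0.10 (adjusted p = 1), between 12.67 and 12.77 with DMSO and between 12.65 and 12.79 with RA839. The response in WT minus the response in KO was 0.67 ± 0.14 for 1416430_at, which missed the threshold as an interaction term (adjusted p = 0.179, or 0.0579 with the replicate block). Without array 2 of WT_RA839 it was 0.59 ± 0.11 (adjusted p = 0.0942). A different response of Cat in the 2 genotypes was therefore not called, although the rise was called in WT.

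KO_DMSO lay below WT_DMSO for both Cat probe sets, with no overlap. The log2 difference was -2.08 ± 0.10 (SE) at 1416430_at, where the KO mean was 4.22-fold lower (adjusted p = 1.91e-09), and -0.66 ± 0.10 at 1416429_a_at, 1.58-fold lower (adjusted p = 3.58e-04). With RA839 in both genotypes, KO was 6.73-fold lower at 1416430_at (adjusted p = 2.40e-11) and 2.09-fold lower at 1416429_a_at (adjusted p = 2.69e-06). Without array 2 of WT_RA839 these log2 differences in RA839 were -2.66 (adjusted p = 2.65e-11) and -0.95 (adjusted p = 1.04e-06). The comparisons in DMSO and in RA839 use different arrays, but each shares its WT or KO arrays with a comparison of RA839 with DMSO. Leaving out any 1 array of the experiment kept both falls in DMSO past the threshold, with log2 differences between -2.11 and -2.05 at 1416430_at and between -0.69 and -0.61 at 1416429_a_at. The 3′ minus 5′ difference of Actb also separated KO_DMSO from WT_DMSO, and its part in the differences of Cat, Gpx4 and Sod2 between genotypes was not tested.

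In the siRNA experiment, 1416430_at read 12.02, 11.99, 11.96 and 12.49 in siControl, 12.83, 12.86, 12.94 and 12.96 with siKeap1-1, and 12.93, 12.80, 12.72 and 12.85 with siKeap1-2. Every Keap1 siRNA array lay above every control, and siControl array 4 stood above the other 3 controls. The rise was 0.78 ± 0.11 with siKeap1-1 (1.72-fold, adjusted p = 6.17e-04) and 0.71 ± 0.11 with siKeap1-2 (1.64-fold, adjusted p = 0.00165). The siRNAs differed from each other by 0.07, with a 95% interval from -0.16 to 0.30. At 1416429_a_at no rise was called: the differences were 0.09 (95% interval -0.05 to 0.24, adjusted p = 0.481) and 0.05 (95% interval -0.10 to 0.20, adjusted p = 0.762), and the groups overlapped between 13.96 and 14.27.

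**Figure D1:**
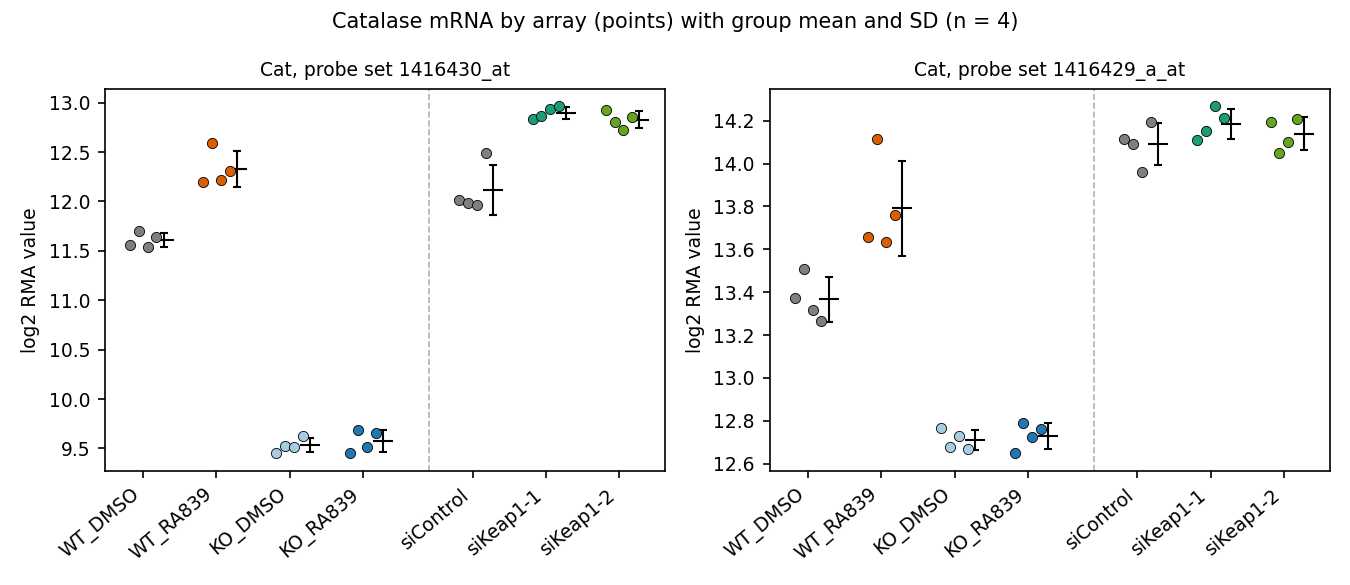
Log2 RMA values of the Cat probe sets on each array (points, arrays 1 to 4 from left to right) with group mean and SD (bars, n = 4); a dashed line parts the compound experiment from the siRNA experiment, and the y axes differ. KO arrays lie lowest in both panels, WT_RA839 lies above WT_DMSO in both, and the Keap1 siRNA groups stand clear of siControl at 1416430_at but not at 1416429_a_at.

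The difference between the Cat probe sets within each array, looked at after these values were seen and given as a description, was lowest in the KO groups. It (1416430_at minus 1416429_a_at) was -1.76 ± 0.09 in WT_DMSO, -1.46 ± 0.04 in WT_RA839, -3.18 ± 0.11 in KO_DMSO, -3.15 ± 0.06 in KO_RA839, -1.97 ± 0.19 in siControl, -1.29 ± 0.03 with siKeap1-1 and -1.31 ± 0.07 with siKeap1-2 (SD, n = 4). The readings of 1416429_a_at, between 12.65 and 14.27, are nearer to the highest value on the arrays (15.04 to 15.24), and what part this has in the smaller differences was not tested.

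By the likeness of their log2 values to those of Cat at 1416429_a_at, its brighter probe set, over the 16 arrays of the compound experiment, the nearest named genes were Cisd2 (Pearson r = 0.983), 9030607J07Rik (r = 0.98) and Ikbkg (r = 0.98). These correlations are descriptive, since all 16 arrays share the difference between genotypes.

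Gpx4 was lower in KO than in WT macrophages and, by smaller steps, higher with siKeap1-2 than with siControl. At 1456193_x_at, WT_DMSO read 12.14, 11.94, 12.21 and 12.26, and KO_DMSO read 11.92, 11.82, 11.71 and 11.63. No KO array reached the lowest WT array, at 11.94, though the gap was only to 11.92. The difference, KO minus WT, was -0.37 ± 0.10 (SE; 1.29-fold lower, adjusted p = 0.0125) in DMSO and -0.43 ± 0.10 (1.35-fold lower, adjusted p = 0.00407) in RA839, or -0.38 (adjusted p = 0.00932) there without array 2 of WT_RA839. At 1451695_a_at, WT_DMSO read 10.67, 10.37, 10.64 and 10.46 and KO_DMSO 10.23, 10.13, 9.90 and 9.88, again with no overlap. That difference of -0.50 ± 0.17 passed narrowly (adjusted p = 0.0426). The call was lost on leaving out any 1 of 9 of the 16 arrays. Over all 16 such fits the adjusted p ran from 0.00272 to 0.11. In 9 other settings at the same threshold the call was kept, with adjusted p from 0.00242 to 0.0409. In RA839 the difference at this probe set, -0.24, was not called (adjusted p = 0.304), but it was -0.45 ± 0.11 (adjusted p = 0.00852) without array 2 of WT_RA839, which read 9.64 against 10.41 to 10.58 on the other WT_RA839 arrays.

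RA839 itself moved neither Gpx4 probe set past the threshold in WT. The difference was 0.01 at 1456193_x_at (95% interval -0.20 to 0.21) and -0.27 at 1451695_a_at (95% interval -0.62 to 0.08), or -0.04 and -0.06 without array 2 of WT_RA839.

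With siKeap1-2, Gpx4 at 1451695_a_at read 11.22, 11.14, 11.18 and 11.04, all above the siControl readings of 10.82, 10.85, 10.91 and 10.67. The rise was 0.33 ± 0.08 (1.26-fold, adjusted p = 0.0263), and at 1456193_x_at it was 0.24 ± 0.06 (1.18-fold, adjusted p = 0.0457). Both calls were fragile: leaving out single arrays moved the adjusted p to between 0.0171 and 0.0787 at the first, and between 0.0235 and 0.124 at the second, past 0.05 for 6 and 10 of the 12 arrays. With siKeap1-1 the rises were 0.10 (95% interval -0.08 to 0.27) and 0.12 (95% interval -0.02 to 0.26), and neither passed. siKeap1-1 minus siKeap1-2 was -0.23 at 1451695_a_at (adjusted p = 0.145, or 0.0495 with the replicate block), so a difference between the siRNAs was called only with the block. The Actb difference was 1.34 to 1.48 in siControl, 1.37 to 1.65 with siKeap1-1 and 1.47 to 1.62 with siKeap1-2, and its part was not tested. The genes most like Gpx4 at 1456193_x_at were Adcy9 (Pearson r = 0.973), Nlrx1 (r = 0.973) and Postn (r = 0.961) over the 16 compound arrays, and Mettl22 (r = 0.968), Eif2d (r = 0.965) and Psmd4 (r = 0.963) over the 12 siRNA arrays. These are descriptions too, over arrays that share the group differences.

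**Figure D2:**
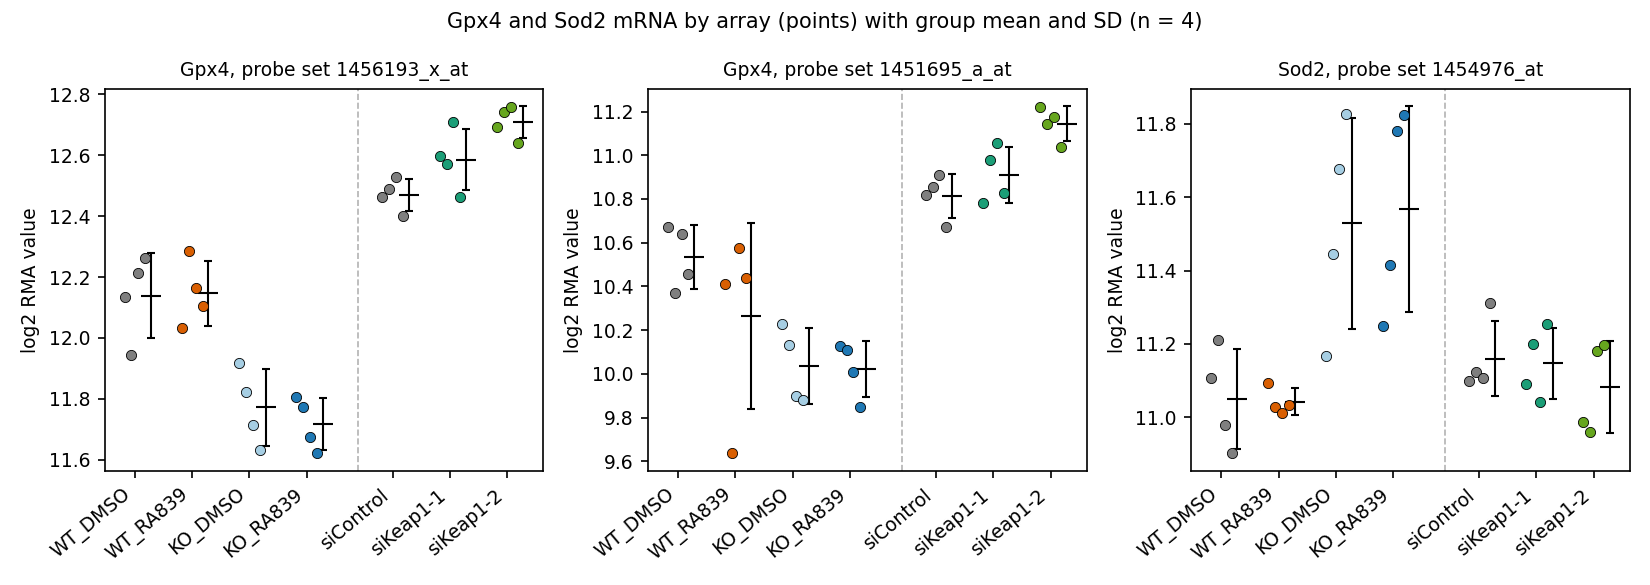
Log2 RMA values of both Gpx4 probe sets and of Sod2 1454976_at on each array (points, arrays 1 to 4 from left to right) with group mean and SD (bars, n = 4); the dashed line parts the experiments, and the y axes differ. Group means of Gpx4 are lowest in the KO groups and highest with siKeap1-2, array 2 of WT_RA839 sits at 9.64 in the middle panel, and the KO groups of Sod2 spread from 11.17 to 11.83.

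Gpx3, the secreted peroxidase, fell with both Keap1 siRNAs. Its 1 probe set, 1449106_at, read 12.39, 12.66, 12.45 and 12.52 in siControl, 12.09, 12.31, 11.97 and 12.15 with siKeap1-1, and 12.14, 12.13, 12.02 and 12.11 with siKeap1-2. No Keap1 siRNA array reached the lowest control. The difference was -0.38 ± 0.08 (SE; 1.30-fold lower, adjusted p = 0.0116) with siKeap1-1 and -0.40 ± 0.08 (1.32-fold lower, adjusted p = 0.0103) with siKeap1-2. Both falls kept their calls on leaving out any 1 array, but not when all 28 arrays gave 1 estimate of the spread (adjusted p = 0.804 and 0.80).

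That pooled spread was large because Gpx3 varied far more in the compound experiment. WT_DMSO read 11.87, 10.59, 12.84 and 11.82, and WT_RA839 read 11.69, 10.06, 12.66 and 12.07. KO_DMSO read 13.02, 12.99, 11.75 and 11.61, and KO_RA839 read 13.04, 12.83, 11.62 and 11.64. In WT, array 2 was the lowest and array 3 the highest with DMSO and with RA839. In KO, arrays 1 and 2 lay above arrays 3 and 4 with both.

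RA839 minus DMSO for same-numbered arrays was -0.18, -0.53, -0.18 and 0.25 in WT, and 0.02, -0.16, -0.12 and 0.04 in KO. KO minus WT was 0.56 in DMSO (95% interval -0.62 to 1.75) and 0.67 in RA839 (95% interval -0.52 to 1.85), with neither called. Leaving out single arrays moved these differences to between 0.17 and 0.92 in DMSO, the lowest without array 2 of WT_DMSO, and to between 0.15 and 1.01 in RA839, the lowest without array 2 of WT_RA839. RA839 minus DMSO in WT was 0.36 without that array, opposite in sign to the difference with all arrays, and was not called. The 95% intervals are too wide to show whether Gpx3 differed between the genotypes. In the siRNA experiment, the genes most like Gpx3 were Rcan3 (Pearson r = 0.956), Pid1 (r = 0.952) and Zfp74 (r = 0.945) over 12 arrays, as a description.

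**Figure D3:**
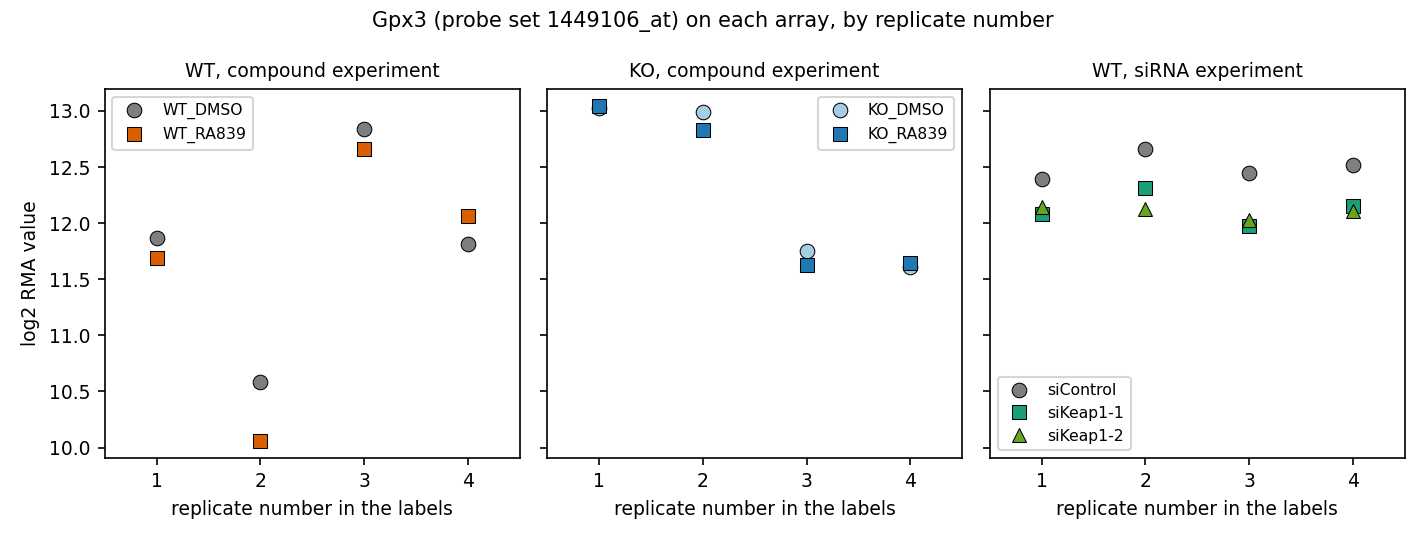
Log2 RMA values of Gpx3 (1449106_at) against the replicate number in the labels, for WT and KO cells of the compound experiment and for the siRNA experiment; symbols mark the groups. In the left panel array 2 is lowest and array 3 highest in both groups, in the middle panel arrays 1 and 2 lie above arrays 3 and 4, and in the right panel all 4 siControl arrays, at 12.39 to 12.66, lie above all Keap1 siRNA arrays, at 11.97 to 12.31.

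Gpx1, the cytosolic peroxidase, was not called in any of the 8 comparisons in the main fit. It read 13.84 to 13.96 in WT_DMSO, 13.66 to 13.93 in WT_RA839, 13.61 to 13.87 in KO_DMSO and 13.56 to 13.85 in KO_RA839. In siControl it read 14.03, 14.05, 14.05 and 13.99, against 13.86, 13.89, 13.96 and 13.81 with siKeap1-1 and 13.82, 13.87, 13.89 and 13.76 with siKeap1-2. Both siRNA groups thus lay below all controls. The differences were -0.15 ± 0.06 (SE; adjusted p = 0.128) and -0.19 ± 0.06 (adjusted p = 0.0638), and the second passed with the replicate block (adjusted p = 0.0233).

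Sod2, the mitochondrial dismutase, gave unlike results at its 4 probe sets. At 1454976_at, KO_DMSO read 11.17, 11.45, 11.68 and 11.83 against 11.11, 11.21, 10.98 and 10.90 in WT_DMSO, which overlap at 1 KO array. KO was higher by 0.48 ± 0.15 (SE; 1.39-fold, adjusted p = 0.0285) in DMSO and by 0.52 ± 0.15 (1.44-fold, adjusted p = 0.0150) in RA839, where the groups did not overlap. Without array 2 of WT_RA839 the difference in RA839 was again 0.52 (adjusted p = 0.0281). The call in DMSO was lost without array 3 or 4 of either DMSO group (adjusted p up to 0.0959), and the call in RA839 without array 3 or 4 of KO_RA839 (adjusted p up to 0.0529). The other 3 Sod2 probe sets differed by -0.09 to -0.07 in DMSO, none of them called. In RA839 they also pointed the other way from 1454976_at, and none was called. The difference was -0.29 at 1417194_at (95% interval -0.54 to -0.05), which was called lower when all 28 arrays gave 1 estimate of the spread (adjusted p = 0.0344) and without array 4 of KO_RA839 (adjusted p = 0.0207). It was -0.22 at 1448610_a_at, or -0.07 without array 2 of WT_RA839, and -0.06 at 1417193_at. A rise of Sod2 mRNA in KO thus rests on 1 of 4 probe sets.

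RA839 in WT changed no Sod2 probe set past the threshold, with differences between -0.01 and 0.14. At 1448610_a_at, the brightest of them in the compound experiment, array 2 of WT_RA839 read 13.10 against 12.46 to 12.59 on the other 3, and without it the difference there was -0.01 in place of 0.13. With the Keap1 siRNAs the 4 probe sets differed from siControl by -0.08 to 0.10, none called.

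Sod1, the cytosolic dismutase, was not called in the main fit for RA839 or for either Keap1 siRNA at any of its 5 probe sets. At 1451124_at, the brightest, WT_DMSO read 14.50, 14.50, 14.49 and 14.48 and KO_DMSO 14.53, 14.52, 14.45 and 14.47. The groups overlapped, and the 95% interval of the difference ran from -0.20 to 0.20. WT_RA839 read 14.57, 14.09, 14.53 and 14.51, so its low value was array 2. RA839 minus DMSO was -0.07 there, or 0.04 without that array. In the siRNA experiment the same probe set read 14.64 to 14.69 in siControl, 14.76 to 14.84 with siKeap1-1 and 14.72 to 14.80 with siKeap1-2. These groups did not overlap the controls, but the differences of 0.14 (adjusted p = 0.121) and 0.11 (adjusted p = 0.257) missed the threshold. At 1459976_s_at, siKeap1-1 read 14.45 to 14.53, above the 14.36 to 14.43 of siControl, and siKeap1-2 overlapped the controls. Some alternative settings called rises at these probe sets, as given in the last section.

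One Sod1 probe set was called in KO_DMSO, 1447761_x_at, higher by 0.31 ± 0.09 (SE; adjusted p = 0.0206). It read 2.20 to 2.43 in WT_DMSO and 2.48 to 2.65 in KO_DMSO, below the lower quartile of every array (3.89 to 4.06 in this experiment). The remaining Sod1 probe sets lay at 8.95 to 10.32 (1435304_at), 4.78 to 6.13 (1440222_at) and 13.87 to 14.53 (1459976_s_at) over all 28 arrays.

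Sod3, the secreted dismutase, had low readings throughout. Its probe set 1417633_at lay between 2.41 and 3.27 and 1417634_at between 3.96 and 4.81 over all 28 arrays, and neither was called in any comparison. At 1417633_at, siKeap1-1 minus siControl was -0.21 (adjusted p = 0.118, or 0.0491 with the replicate block), again among the dimmest readings.

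Counted over the 17 probe sets, RA839 in WT raised 1 and lowered 0. Of all probe sets tested, 0.311% were called higher and 0.0333% lower. With the replicate block, 2 were higher, both of Cat, against 0.873% of all. Groups did not overlap at 2 of 17, against 5.02% of all. RA839 in KO gave 0 calls among the members and 0 among all probe sets (0%) by limma, with 860 of all and 0 members at an unadjusted p under 0.05. The interaction called 0 members and 0.0377% of all probe sets, with 2 members and 1624 of all at an unadjusted p under 0.05.

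KO against WT in DMSO called 2 of 17 higher and 4 lower, beside 9.87% and 11.4% of all probe sets, and groups did not overlap at 5 of 17, beside 26.7%. In RA839, 1 was higher and 3 lower, beside 13.3% and 13%, with no overlap at 4 of 17, beside 27.6%. The median difference over the 17 was -0.07 in DMSO and -0.09 in RA839, beside -0.004 and 0.006 over all probe sets. Since the 17 probe sets stand for 7 genes and are not independent, nothing particular to the members is read from these counts.

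siKeap1-1 called 1 member probe set higher and 1 lower, beside 5.18% and 4.37% of all, and siKeap1-2 called 3 higher and 1 lower, beside 3.64% and 3.14%. With the replicate block, 2 were lower for each siRNA, beside 7.33% and 6.17% of all. Groups did not overlap at 5 of 17 for siKeap1-1 and 8 of 17 for siKeap1-2, beside 15.7% and 16%. Both siRNAs share the siControl arrays, so their results are not independent of each other. Between the siRNAs, 0 members were called, beside 4.01% of all, with 2 members and 7118 of all at an unadjusted p under 0.05. With the block, 1 was lower with siKeap1-1, beside 4.12% of all.

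**Figure D4:**
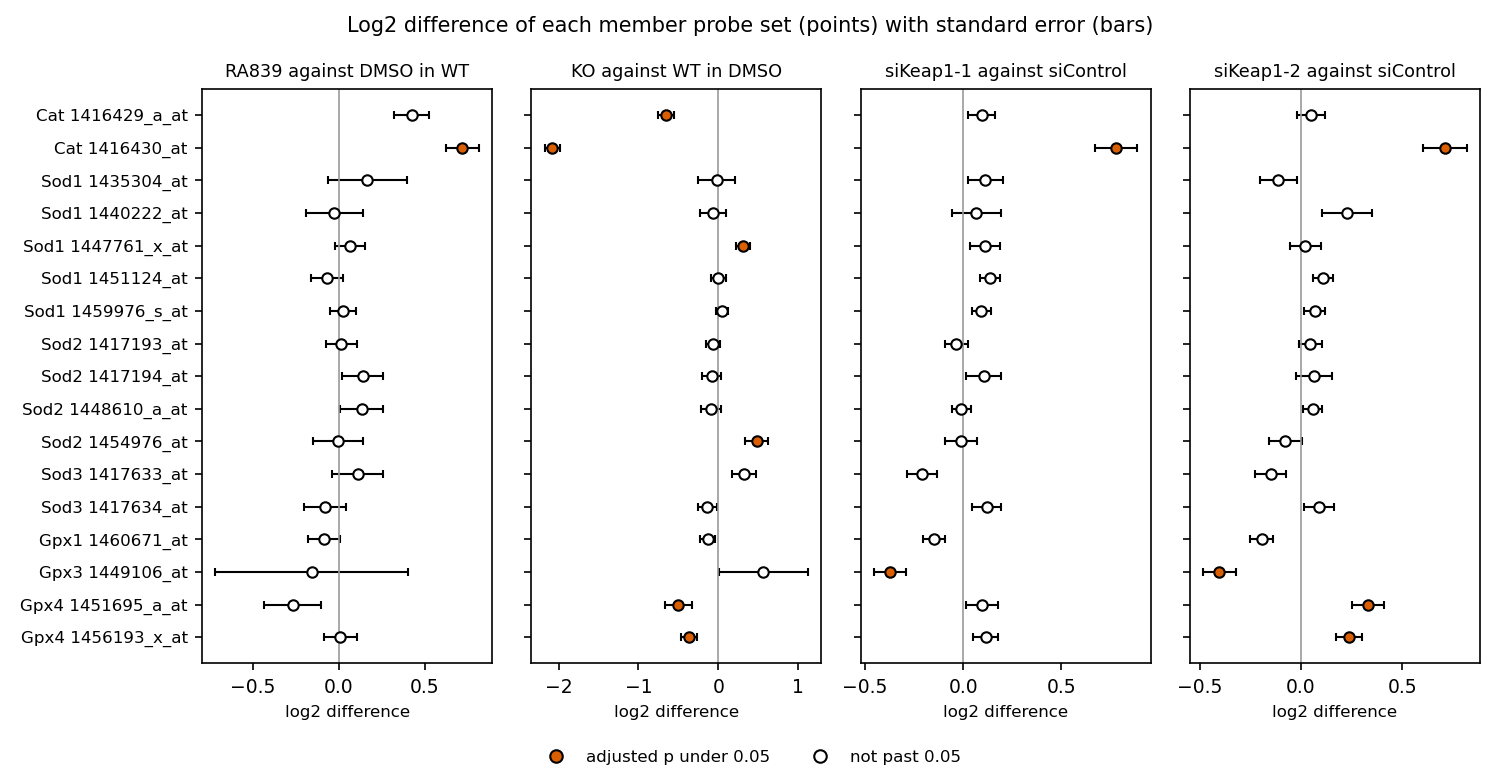
Log2 difference of each of the 17 probe sets in 4 comparisons (points) with standard error from limma (bars); filled points passed an adjusted p of 0.05, and the x axes differ between panels. Cat 1416430_at is filled in all 4 panels, at 0.72, -2.08, 0.78 and 0.71, and most of the other points lie near 0.

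Genes that supply these enzymes were counted from lists, on the brightest probe set of each gene. Over all 18193 genes on that basis, RA839 in WT called 0.451% higher, KO against WT called 10.3% higher and 12.9% lower in DMSO and 14.9% lower in RA839, siKeap1-1 called 7.06% higher and 5.18% lower, and siKeap1-2 called 4.94% higher and 3.9% lower. The counts of the lists and markers that follow are to be read beside these shares, and nothing particular to a list is read from them. Of the glutathione supply genes, RA839 in WT raised 3 of 5, Gss (1.46), Gclc (1.31) and Gclm (1.16 log2 units), the enzymes that build glutathione. Slc7a11 (0.76, adjusted p = 0.265) and Gsr (0.17, adjusted p = 0.679) were not called. With the replicate block 4 of 5 were called higher, beside 0.873% of all probe sets. KO_DMSO was lower than WT_DMSO for 5 of 5, from Slc7a11 (-2.59), the cystine importer, and Gclm (-2.31) to Gsr (-0.44), glutathione reductase, and with RA839 in both genotypes KO was again lower for 5 of 5, with differences of -3.41 for Slc7a11 and -3.40 for Gclm. Both Keap1 siRNAs raised 5 of 5, Gclc by 2.05 and 1.94 and Gss by 1.94 and 2.18.

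Other selenoproteins were mixed: of 15, KO_DMSO was higher for 1, Selenoi (0.47), and lower for 3, Txnrd1 (-1.47) and Txnrd3 (-1.01), both thioredoxin reductases, and Selenom (-0.70). siKeap1-1 raised 1, Txnrd1 (0.46), and lowered 2, Selenom (-0.63) and Selenoo (-0.34), while siKeap1-2 raised 2, Txnrd1 (0.44) and Txnrd3 (0.39), and lowered 1, Selenom (-0.56). Of 7 selenoprotein synthesis genes, KO_DMSO was higher for 1, Pstk (0.37). Each Keap1 siRNA raised 2, Eefsec (0.37 and 0.38) and Trnau1ap (0.32 and 0.33). Of the 5 other glutathione peroxidases, KO_DMSO was lower for 3, Gpx5 (-0.46), Gpx6 (-0.41) and Gpx2 (-0.36), the first and second of them at means of 3.83 or less in both groups, below the lower quartile, and siKeap1-1 raised 1, Gpx8 (0.61).

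Among peroxiredoxins, which also reduce peroxides, 3 of 6 listed genes had a probe set of their own, and KO_DMSO was lower for 1, Prdx3 (-0.40). Of 12 peroxisome assembly genes measured, KO_DMSO was higher for 1, Pex26 (0.70), and lower for 1, Pex11a (-0.44). Each Keap1 siRNA raised 2, Pex10 (0.53 and 0.40) and Pex11a (0.42 and 0.63). Of 7 oxidases that make hydrogen peroxide, KO_DMSO was higher for Dao (0.77) and lower for Acox3 (-0.68), and each Keap1 siRNA lowered 1, Xdh (-0.39 and -0.67). Of 7 lipid peroxidation partners of Gpx4, Alox5, the 5-lipoxygenase, was lower in KO_DMSO (-1.44). siKeap1-1 raised Alox5 (0.73) and lowered Acsl4 (-0.44). Of 4 copper supply genes, siKeap1-1 lowered 1, Atp7a (-0.23), and 0 were called in KO_DMSO or with siKeap1-2. RA839 in WT called 0 genes of these 8 lists. With the replicate block it called 1 of the other selenoproteins and 1 of the oxidases higher. RA839 in KO called 0 of these and of the glutathione supply genes.

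Markers of other cells differed between the genotypes beside these results. Of 8 neutrophil and precursor markers, KO_DMSO was higher for 0 and lower for 3 (S100a8, Ltf and Ctsg), and their summed linear level ran from 4378 to 4812 in WT_DMSO, 3162 to 4277 in WT_RA839, 2016 to 2781 in KO_DMSO and 1832 to 2332 in KO_RA839. Of the 8, 1 (Elane) was below the lower quartile on all 16 arrays, Ctsg on 13, Prtn3 on 3 and Mpo on 2, while S100a8 read 10.68 to 12.10 and Ltf 5.88 to 7.66, and these, S100a9 and Camp were below it on 0. Of 5 erythroid markers 1 was lower (Epor), with sums of 140 to 177 in WT_DMSO and 119 to 150 in KO_DMSO. Of the 5, 1 (Alas2) was below the lower quartile on all 16 arrays and Epor on 2, while Klf1 (4.95 to 5.87), Slc4a1 (5.05 to 5.62) and Hba-a1 (4.06 to 5.24) were below it on 0. Of 7 fibroblast markers 3 were lower, with sums of 174 to 353 and 174 to 223. Of the 7, 1 (Lum) was below the lower quartile on all 16 arrays, Col3a1 on 9, Dcn on 5, Col1a2 on 3 and Pdgfra on 2. Col1a1 and Pdgfrb were below it on 0. Of 8 macrophage markers 2 were higher (Cd14 and Fcgr1) and 1 lower (Itgam), with sums of 79257 to 82347 in WT_DMSO and 79529 to 87831 in KO_DMSO. Of 6 endothelial markers 1 was higher and 2 lower, of 5 mast cell markers 1 higher, of 6 lymphocyte markers 1 lower and of 5 dendritic cell markers 0 either way. RA839 in WT called 0 markers of these 8 lists, or 1 macrophage marker lower with the replicate block. The summed neutrophil level on every WT_RA839 array nonetheless lay below that on every WT_DMSO array. That sum is mainly the reading of 1 gene, S100a8, at 10.68 to 12.10 beside a log2 sum of 10.84 to 12.23 over the 16 arrays. The median log2 difference over the 8 neutrophil markers was -0.33. The part of this in the rise of Cat with RA839 was not tested. The part of these markers in the differences of Cat, Gpx4 and Sod2 between genotypes was not tested, and in bulk RNA fewer cells of a type cannot be told apart from less RNA per cell.

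With the Keap1 siRNAs, 2 of 8 macrophage markers were lower for each (Cd14 and Fcgr1), with sums of 92834 to 95294 in siControl, 86234 to 89788 with siKeap1-1 and 85851 to 87949 with siKeap1-2. Of 8 neutrophil markers 1 was higher with siKeap1-1 (Elane) and 0 with siKeap1-2, and their sums overlapped, at 3680 to 7855, 5636 to 8883 and 5755 to 10733. Elane read only 3.48 to 4.60 there, below the lower quartile on 11 of the 12 arrays. Of 5 dendritic cell markers 2 were lower with siKeap1-1 (Ccr7 and Flt3) and 0 with siKeap1-2, with sums of 13179 to 13977, 12233 to 13982 and 13711 to 13942. Of 6 endothelial markers 2 were lower with siKeap1-2 (Kdr and Vwf), with sums of 1782 to 1888 in siControl, 1615 to 1787 with siKeap1-1 and 1373 to 1426 with siKeap1-2. Of 7 fibroblast markers 1 was higher with each siRNA, with sums of 230 to 291, 226 to 296 and 254 to 368. Their part in the results for Cat, Gpx3 and Gpx4 was not tested.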

How the data were processed

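RNA of 28 BMDM cultures was measured on Affymetrix mouse arrays. The authors deposited 1 table of log2 values made with RMA, per the submitters' processing notes, which name no version. RMA subtracts background, equalizes arrays and summarizes probes, which compresses differences of dim probe sets. Array medians differed between the experiments, so each was fitted apart. The number of arrays, 4 per group, limits the precision.

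Of 45101 probe sets, 64 controls were left out. Names came from the platform annotation: of the 45037 tested, 34945 named 1 gene, 932 several and 9160 none, and those with several were not used for genes. Identical values were found in 0 pairs of arrays. limma 3.58.1 in R 4.3.3 was run over 45037 probe sets (1 mean per group in lmFit, plain eBayes, two-sided, Benjamini-Hochberg adjusted p under 0.05). limma was tested on simulated data.

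The members, the gene lists and the tests were chosen with earlier results of these data known. Genes were named by rule: every member probe set, Nfe2l2 and Keap1, up to 4 called genes per list, and the 3 genes most alike to a called member. Deviations from the group means were correlated, over the brightest probe set of each gene, between arrays of 1 number. The correlations were 0.27 to 0.46 for WT, 0.66 to 0.70 for KO cells and 0.12 to 0.66 for the siRNA arrays. All were above the minimum of 0.1, so the numbers pair arrays there. The main fit does not use this pairing, and the replicate block does. For RA839 within a genotype and for the siRNAs, the block is therefore the fit that follows the pairing, and its calls are given where they differ. Between genotypes the values were -0.29 to -0.006, so they do not. The replicate block for KO against WT still used numbers shared by both genotypes, so nothing is read from its unchanged calls there. The labels give the numbers but not what is shared. Alternatives were the replicate block, array weights, a trended robust prior, quantile normalization, median centring, brighter or brightest probe sets only, other sets of arrays, an adjusted p under 0.01, and each array left out. Promoter windows are RefSeq's (GRCm38.p6), and no protein sequences were used.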

Additional observations from a re-analysis of the deposited data

Results flagged for a closer look

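In 10 of the 119 groups of 4 arrays, over the 17 probe sets and 7 groups, 1 array stood so far from the others that its gap, as a share of the group's range, exceeded Dixon's 95% critical value. Chance alone gives about 1 in 20 groups. Of these, 3 came from array 2 of WT_RA839, the array with the large 3′ minus 5′ difference for Gapdh, all at Sod1: 1435304_at read 10.32 against 9.36 to 9.45 on the other 3 arrays, 1451124_at read 14.09 against 14.51 to 14.57, and 1459976_s_at read 13.87 against 14.07 to 14.09. The part of RNA quality in these readings was not tested.

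In siControl, array 4 stood apart at Cat 1416430_at (12.49 against 11.96 to 12.02), at Sod2 1454976_at (11.31 against 11.10 to 11.12) and, by a very small gap, at Sod2 1417193_at (11.27 against 11.29). The rise of Cat with the Keap1 siRNAs was larger without that array, 0.91 and 0.84. The dim Sod3 probe sets stood apart at siControl array 1 (1417633_at, 2.68 against 2.92 to 2.93) and array 2 (1417634_at, 4.62 against 4.56). Sod1 1459976_s_at stood apart in WT_DMSO array 2 (14.05 against 13.98 to 13.99), and Sod1 1440222_at in KO_RA839 array 2 (5.12 against 5.30 to 5.33).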

How the results depend on the processing

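Of 3152 alternative values of the 136 log2 differences (17 probe sets, 8 comparisons), 3088 kept their side of the threshold, 40 lost a call, 24 gained one and 0 called values changed sign. The falls of both Cat probe sets in KO and the rises of Cat 1416430_at with both siRNAs kept their calls in every alternative that tested them.

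The count of called member probe sets moved as follows. For RA839 in WT, 1 became 2 with the replicate block, with all 28 arrays in 1 fit and with a trended robust prior, and 0 with only the groups compared or with the brightest probe set of each gene, since that setting drops Cat 1416430_at. For KO against WT in DMSO, 6 became 2 with an adjusted p under 0.01 and 2 with the brightest probe sets (7 tested), and 3 to 6 on leaving out single arrays (3 without array 4 of KO_DMSO or array 3 of WT_DMSO). For KO against WT in RA839, 4 became 2 with the brightest probe sets and up to 5 in other settings. Leaving out single arrays gave 3 to 5 there (5 without array 2 of WT_RA839). For siKeap1-1, 2 became 1 with an adjusted p under 0.01, with all 28 arrays and with the brightest probe sets, 4 with brighter probe sets only and 5 with the trended robust prior. Both of the last settings added Gpx1 (adjusted p = 0.0383 and 0.0173) and Sod1 1451124_at (adjusted p = 0.0266 and 0.00348). The prior also added Sod1 1459976_s_at (adjusted p = 0.0457). The replicate block added Sod3 1417633_at, and leaving out single arrays gave 2 to 3. For siKeap1-2, 4 became 1 with an adjusted p under 0.01 and with all 28 arrays, 6 with the trended robust prior (Gpx1, adjusted p = 0.00463, and Sod1 1451124_at, adjusted p = 0.0205, were added), 5 with the replicate block, array weights or brighter probe sets only, and 2 to 5 on leaving out single arrays (2 without siControl array 1, 2 or 4 or siKeap1-2 array 1, 2 or 3). Between the siRNAs, 0 became 1 with the replicate block, and 0 to 1 on leaving out single arrays (Sod1 1435304_at without siKeap1-1 array 1). Beside these and the calls named above, the replicate block changed no other call. RA839 in KO and the interaction gave 0 in every alternative. Apart from the replicate block, the share of all probe sets called was not counted in these alternatives. A setting can move the count of all probe sets too, so nothing particular to the members is read from these moves. The causes were not tested.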
